A study of Sus scrofa with 6 samples.

Results

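The regions described here are stretches of chromatin that were called accessible in every deoxyshikonin library, in no control library, and that lay close to chromatin accessible in all libraries. They come from ATAC-seq, which sequences the DNA that a transposase can reach, in intestinal epithelial cells of the pig, Sus scrofa. Peaks of the 6 libraries that shared at least 1 bp were merged into 1 region. A drug-only region held a peak in all 3 libraries of cells stimulated with deoxyshikonin and in none of the 3 control libraries, and a shared region held a peak in all 6. Drug-only regions whose midpoint was within 10 kb of the midpoint of a shared region were taken as members and are called near drug-only regions. There were 647 of them among 6065 drug-only regions and 51099 merged regions. Drug-only regions made up 11.9% of all merged regions, a share that the definition itself fixes. The other 5418 drug-only regions, farther than 10 kb from a shared region or on a contig without one, are called far.

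The study compared control cells with cells given deoxyshikonin, a plant naphthoquinone related to shikonin, with 3 libraries each. The sources used here do not state the breed, the line or primary source of the cells, the dose, the duration or the solvent. Nothing in the labels ties replicates to separate cultures, so spreads and p-values describe these libraries and may reflect technical variation. Cells were measured in bulk, so fewer cells with an open site and less opening per cell cannot be told apart. The labelled tissue was not checked against marker genes, because the peak positions are on contigs that were not tied to gene names here.

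ATAC-seq reads the places where the Tn5 transposase can reach DNA that is not wrapped tightly in nucleosomes. Such places are mostly promoters and enhancers, and in animal genomes enhancers often occur in groups, with several accessible elements within a few kilobases of each other or of a promoter. Distance along the DNA alone does not tell whether a pair of accessible elements serves the same gene, and no gene or promoter was assigned to any region here.

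The control lists held between 17169 and 25888 peaks and the deoxyshikonin lists between 33295 and 39281. Total read numbers are unknown. Relative depth, the genome-wide mean pileup of tags recovered from the peak values, was 1.89, 2.13 and 2.57 in control replicates 1 to 3 and 2.06, 1.46 and 1.96 in deoxyshikonin replicates 1 to 3. The height of a peak is given below as the pileup of tags at its summit divided by this library value. The local background is the mean pileup over the 10 kb around the summit, also divided by the library value. Fold enrichment is the authors' value, the summit over the local background. It is used within a list, except as an alternative height of shared regions and beside control-only regions, where this is said. The intervals that depth would allow are not given, since duplicate reads are not independent molecules.

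Near drug-only regions were a small and dispersed part of the drug-only chromatin. They made up 10.7% of the drug-only regions. This share was 6.43% (82 of 1276) when each list was shortened to its best 17169 peaks and 6.41% when presence needed 50% coverage of the region, and the other classes were not recounted under these settings. By the same measure, 17.4% of the 5679 regions with a peak in every deoxyshikonin library but in 1 or 2 controls lay within 10 kb of a shared region, and 16.8% of shared regions lay within 10 kb of another shared region. The share was 21.9% for the 1009 regions listed in every control but in 1 or 2 deoxyshikonin libraries, and 23.2% for the 185 regions found in all controls only. Drug-only regions thus had the lowest share of these classes. On contigs that held a shared region at all, the shares were 11.2% for drug-only regions, 18.2% for those also seen in 1 or 2 controls and 18.3% for shared regions, so drug-only regions again had the lowest of these 3 shares. No test was made of these shares, since regions of one library are not replicates.

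Of the 1217 contigs with a drug-only region, 362 had a member. A single member was found on 207 contigs, and 7 contigs held the highest number, 6 each. The nearest shared region lay at the lower coordinate for 321 members and at the higher coordinate for 326. The median midpoint distance was 5890 bp, with quartiles at 3008 and 8117 bp. Edge to edge, the smallest gap was 27 bp and the median 5220 bp, and 57 members were within 500 bp of their shared neighbour. Most members (587) had a single shared region within 10 kb, and 40 (6.18%) had shared regions on both sides. Another drug-only region lay within 10 kb of 39 members (6.03%), against 8.38% of the far regions. A region seen in every deoxyshikonin library but in 1 or 2 controls was within 10 kb of 5.87% of near and 5.83% of far regions.

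The number of drug-only regions per kilobase of distance was not even. There were 42 with a midpoint up to 1 kb from a shared region and 71 between 1 and 2 kb. The next 3 bins, from 2 to 5 kb, held 48, 54 and 49. Those from 5 to 8 kb held 70, 64 and 73, and the last 2 up to 10 kb held 89 and 87. The same step at 5 kb was present in other classes. Regions also seen in 1 or 2 controls numbered 81, 55 and 74 in the bins from 2 to 5 kb and 117, 112 and 107 from 5 to 8 kb. For shared regions next to another shared region these counts were 122, 135 and 145, and then 290, 309 and 259. The peak caller's local background was taken over 10 kb, so that a strong neighbour within 5 kb of a summit is part of that background. Its part in the step was not tested.

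**Figure D1:**
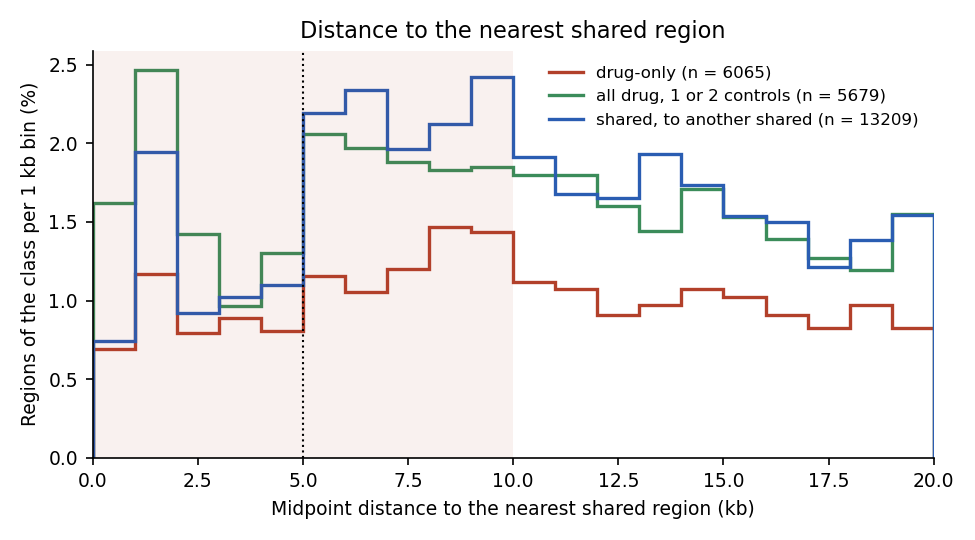
Percentage of the regions of 3 presence classes in each 1 kb bin of midpoint distance (kb) to the nearest shared region. The shaded part holds the 647 members, and the dotted line marks 5 kb, where the drug-only count goes from 49 to 70 per bin and the shared count from 145 to 290.

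In peak height, the near drug-only regions stood above the far ones, on a higher local background. The median height of the near regions was 11.7, 14.4 and 12.8 times the library background in deoxyshikonin replicates 1 to 3. The far regions had 9.71, 11.6 and 10.7. The ratio of near to far was 1.21 ± 0.0236 (SD, n = 3 libraries) and exceeded 1 in all 3. The median local background was 2.14, 2.29 and 2.09 times the library value at near regions and 1.45, 1.52 and 1.45 times at far regions, a ratio of 1.47 ± 0.0305 (SD, n = 3). Members were chosen for a shared region close by, whose tags can be part of this background. A higher background also raises the pileup needed for listing, as given below. Neither difference is therefore independent of the choice, and both are descriptions.

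Relative to that background the near regions were the weaker ones. The median fold enrichment was 4.44, 4.86 and 4.77 at near regions and 5.14, 5.47 and 5.42 at far regions in replicates 1 to 3, a ratio of 0.877 ± 0.0124 (SD, n = 3). Their peaks were also narrower, with median widths of 348, 321 and 333 bp against 377, 347 and 361 bp, a ratio of 0.924 ± 0.00137 (SD, n = 3). A higher background raises the pileup that a peak must reach to be listed. The smallest pileup passing each list's lowest −log10 p had a median of 14, 12 and 14 tags at near regions and 11, 10 and 11 tags at far regions, a ratio of 1.25 ± 0.042 (SD, n = 3). Measured against this requirement, the median pileup was 1.62, 1.67 and 1.71 times the minimum at near regions and 1.73, 1.73 and 1.80 times at far regions.

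**Figure D2:**
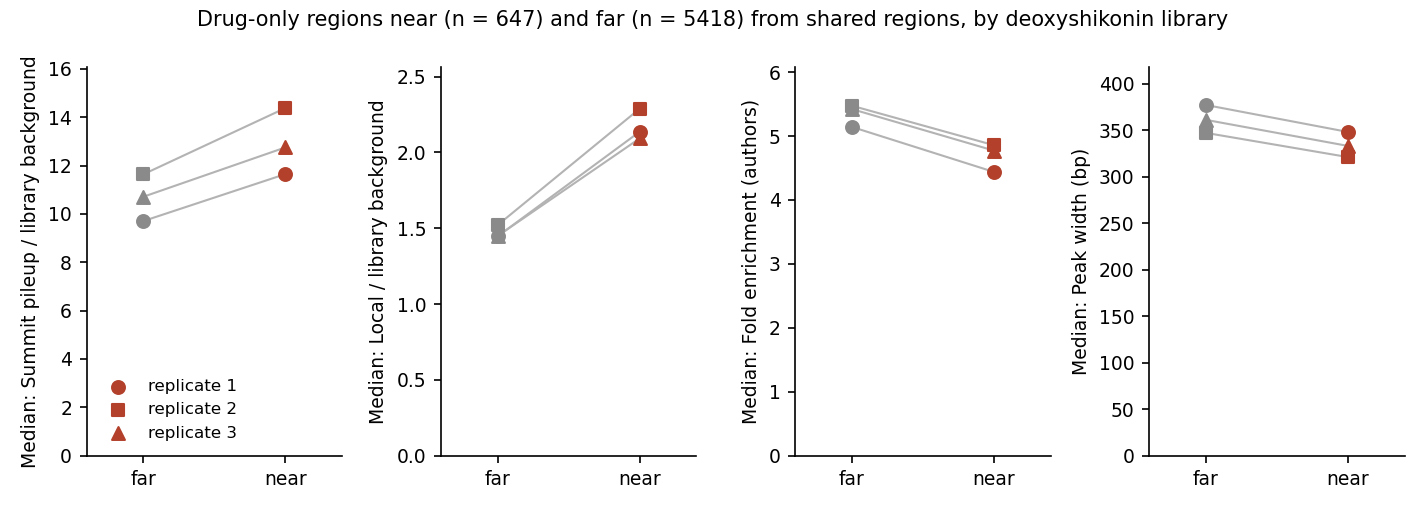
Median height, local background (each over the library background), authors' fold enrichment and peak width (bp) of far and near drug-only regions, with 1 symbol for each of the 3 deoxyshikonin libraries and lines joining a library's 2 values. Height and background were higher at near regions in all 3 libraries, and fold enrichment and width were lower.

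The rank of the members within their lists was close to that of far regions. Ranked by −log10 q, the median member stood at percentile 39.5, 40.7 and 42.5 of the lists of deoxyshikonin replicates 1 to 3, and the median far region at 42.4, 40.0 and 44.4, so that the order was not the same in every library. Few members were among the strongest peaks. In replicate 2 a single member was in the top 10% of the list, and in replicates 1 and 3 there was none, against 46, 31 and 32 far regions in replicates 2, 1 and 3. As shares these were 0.155%, 0% and 0% of near and 0.849%, 0.572% and 0.591% of far regions. The mean height of a member over the 3 libraries ran from 6.36 to 32.1, with a median of 12.7, and its mean fold enrichment from 2.25 to 8.59, with a median of 4.74.

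Height and background changed with distance in a step and not evenly. In the 142 regions within 2.5 kb of a shared region the local background had a median of 2.90 ± 0.207 (SD, n = 3 libraries), and in the 122 from 2.5 to 5 kb it was 2.92 ± 0.168. In the 166 from 5 to 7.5 kb it was 1.80 ± 0.0679, in the 217 from 7.5 to 10 kb 1.70 ± 0.048, and in the 588 far regions from 10 to 20 kb 1.63 ± 0.0365 (SD, n = 3 each). The median height in these same bins was 14.6 ± 1.69, 14.9 ± 1.55, 11.9 ± 1.61, 11.5 ± 1.43 and 11.1 ± 1.11 (SD, n = 3 each). Height was thus largest in the 264 members within 5 kb. Their medians were 13.1, 16.4 and 14.5 in replicates 1 to 3, and those of the 383 members beyond 5 kb were 10.2, 13.0 and 11.2.

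**Figure D3:**
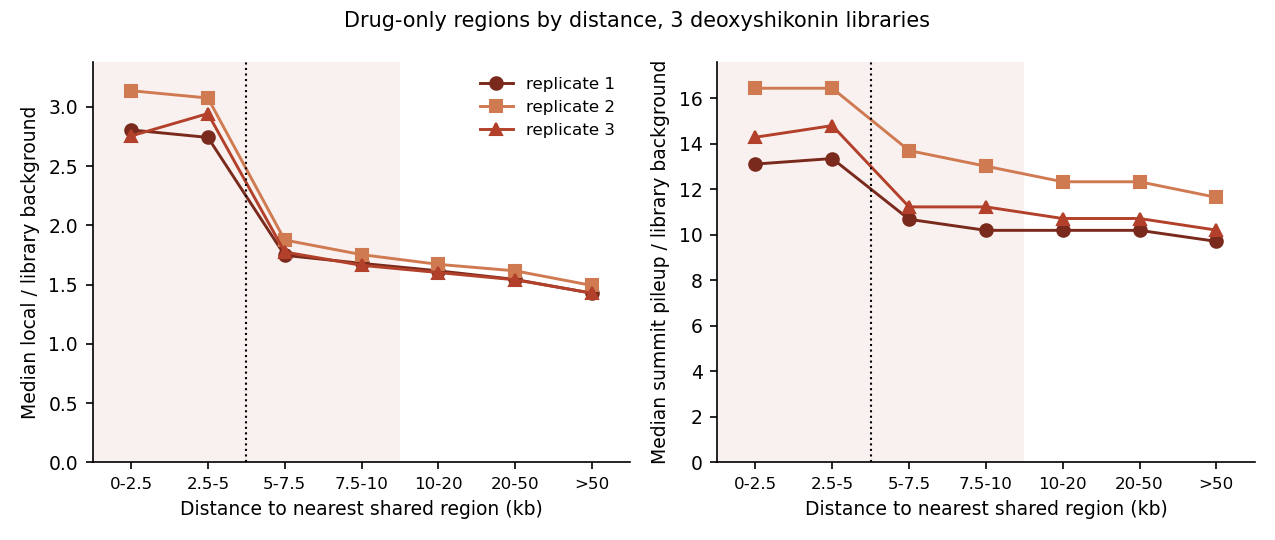
Median local background and median height of drug-only regions in 7 bins of distance (kb) to the nearest shared region, 1 line for each deoxyshikonin library, with members shaded and 5 kb dotted. Both fall between the bins on either side of 5 kb in all 3 libraries and change less elsewhere. The median pileup needed for listing, which is not drawn, falls between the same bins.

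The 3 deoxyshikonin libraries ordered the members in a similar way. Across the 647 members, heights had a Spearman correlation of 0.745 between replicates 1 and 2, 0.760 between 1 and 3 and 0.723 between 2 and 3. These are descriptions across regions, which share libraries and local depth and are not replicates. The median coefficient of variation of height over the 3 libraries was 15.4%. Summits were placed within 100 bp of each other in all 3 libraries at 366 members (56.6%), with a median spread of 86 bp, and far regions were close to this at 55.0% and 89 bp. A library held more than 1 peak in 11 members, and the other 636 had 1 peak per library.

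The absence of a control peak sets only a loose limit on accessibility at these sites in control cells. If the control libraries had the same local background relative to depth as the deoxyshikonin libraries, a summit had to reach a median of 14, 16 and 17 tags in control replicates 1 to 3 to be listed. Expressed as height, these limits were 0.601, 0.585 and 0.527 of the member's own mean height under deoxyshikonin (medians over 647 members). For all 647 members a control summit as high as the deoxyshikonin one would have passed in all 3 lists. The same was so for all 5418 far regions. Both sets had already passed the 3 deoxyshikonin lists, so this is not independent of the choice. Taking the highest of the 3 control limits, only 93 members (14.4%) had a limit under 0.5 of their deoxyshikonin height. Among far regions this share was 23.4%. At the other members a control summit of at least 0.5 of that height could, under the same assumption, have gone unlisted in a control library. The control background at the members themselves is unknown. At their shared neighbours it was lower, at 2.06 times the library value in controls against 2.62 with deoxyshikonin (means of library medians). A lower control background at the members would lower these limits. A control peak outside the region but within 500 bp was present at 60 members (9.27%), against 1.27% of far regions. Members were chosen for a shared region close by, which holds control peaks, so this difference is not independent of the choice. For 8 of these 60, the shared neighbour itself was farther than 500 bp.

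The presence of these regions was then looked up in libraries that had no part in choosing them. Near drug-only regions were defined from 2 deoxyshikonin and 2 control libraries, in each of 9 choices, which gave 931 to 1380 regions. In the deoxyshikonin library left out, 75.8% of them had a peak in replicate 1, 71.2% in replicate 2 and 82.9% in replicate 3 (means over 3 choices each). In the control library left out, 10.2%, 2.22% and 29.8% had a peak in replicates 1, 2 and 3. Over drug-only regions at any distance, the background was 78.1% in the deoxyshikonin and 10.8% in the control library left out. The difference between the deoxyshikonin and the control library averaged 62.6 percentage points and ranged from 42.5 to 79.8 over the 9 choices. The lowest differences were those with control replicate 3 left out, the control library with the longest list and the greatest depth. Regions chosen the opposite way, with peaks in controls only, had a peak in 59.0% of cases in the control library left out. In the deoxyshikonin library left out this was 32.5% (means over the 9 choices). The deoxyshikonin lists were longer than the control lists, and the look-up was not repeated with lists of equal length. The choices share libraries, so no p is given.

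Near regions were found again slightly less often than far regions under deoxyshikonin and more often in controls. Far regions had a peak in 78.6%, 72.7% and 84.3% of cases in deoxyshikonin replicates 1 to 3 left out, and in 7.24%, 1.68% and 19.4% in control replicates 1 to 3. In controls the near share exceeded the far share in 9 of 9 choices, and under deoxyshikonin it was below it in 9 of 9. The gap was widest in control replicate 3, at 29.8% against 19.4%. The difference between near and far was not tested beyond these counts.

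**Figure D4:**
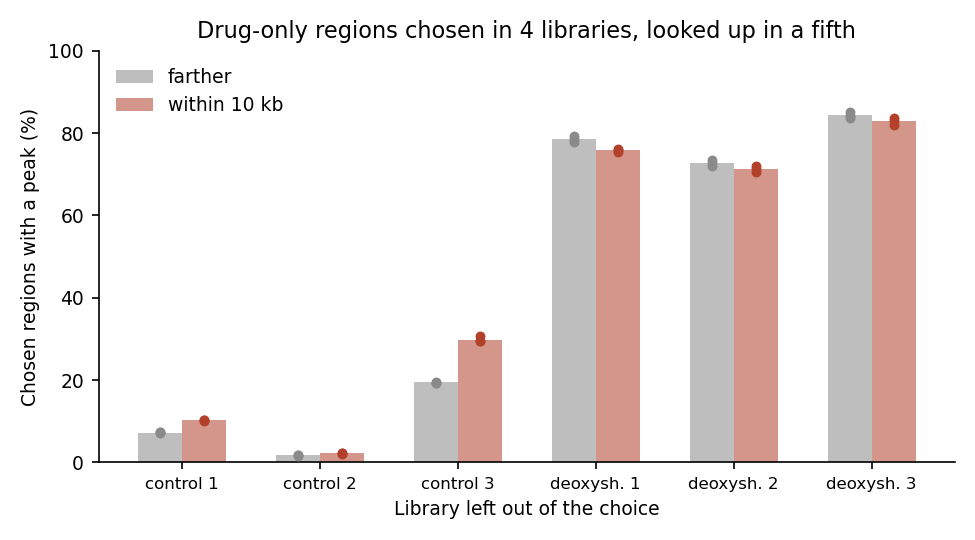
Percentage of drug-only regions, chosen in 2 control and 2 deoxyshikonin libraries, that had a peak in a library left out of the choice. Bars are means and points the 3 choices for each library; near regions reached 71.2% to 82.9% in deoxyshikonin and 2.22% to 29.8% in control libraries.

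The strongest members, by mean percentile of −log10 q, ranked well up in all 3 lists. The first lay on contig LUXX01014477.1 at 2803421 to 2803873, 1085 bp by midpoint from the shared region at 2804479 to 2804985. Its height was 22.8, 24.7 and 24.0 in deoxyshikonin replicates 1 to 3, and the authors' fold enrichment was 5.84, 5.71 and 6.96. The 3 libraries were close in height, and no control list had a peak nearer than 611 bp. Its shared neighbour had control heights of 12.2, 8.45 and 11.7, against 17.5, 22.6 and 17.9 with the drug. The member was thus taller than the neighbour in each deoxyshikonin library. The neighbour also rose, by 0.58 in log2 height (limma, SE 0.18, adjusted p = 0.0169) after the centring described below.

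The second was on LUXX01054371.1 at 2957410 to 2958154, with heights of 19.4, 23.3 and 18.4 and a midpoint 5598 bp from its neighbour. The third, on LUXX01076736.1 at 1111096 to 1111661, had heights of 21.8, 28.1 and 27.6, the tallest of the 5 in replicates 2 and 3 and below the first in replicate 1. Its shared neighbour, 594 bp away edge to edge, reached 16.0, 22.6 and 18.4 in the same libraries, below the member in each. The fourth and the fifth lay near the outer limit of distance. These were LUXX01015702.1 at 2986089 to 2986619, with heights of 16.0, 21.2 and 17.9 at 9010 bp, and LUXX01005638.1 at 681590 to 682175, with 15.0, 20.5 and 20.9 at 9830 bp. None of the 4 neighbours of these members had a called height change (limma adjusted p = 0.151, 0.863, 0.501 and 0.714, in that order). At all 5 the control limit was between 0.383 and 0.430 of the deoxyshikonin height, so under the assumption above a control summit of 0.5 of that height would have been listed.

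The members closest to a shared region had mean percentiles of −log10 q from 31.8 to 57.8. Only the lowest of these was below the median of all 647 members, 40.4. The strongest members above were picked by this same percentile, so their higher rank is fixed by the choice. The closest lay on LUXX01004933.1 at 612161 to 612450, 445 bp by midpoint and 159 bp edge to edge from the shared region at 612610 to 612891. Its height was 11.7, 15.1 and 10.7 in deoxyshikonin replicates 1 to 3. The neighbour had nearly the same height under deoxyshikonin, 10.7, 15.1 and 11.2, and control heights of 10.6, 8.92 and 12.8. The pair thus had nearly the same height under deoxyshikonin. By the definition of a member, only the neighbour was listed in controls. Under the assumption above, the highest control limit was 0.594 of the member's deoxyshikonin height.

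The next on LUXX01062832.1, at 3443085 to 3443461, had heights of 14.1, 17.8 and 13.8. On LUXX01008409.1 at 958956 to 959279 the heights were 19.9, 25.3 and 27.6, on a local background that brought the fold enrichment down to 3.32, 3.82 and 4.24. The other two were LUXX01095385.1 at 1671337 to 1671722, with heights of 17.0, 25.3 and 16.3, and LUXX01097390.1 at 673719 to 674275, with 9.71, 10.3 and 13.3. In all 5 a control peak lay within 500 bp, at gaps of 148 to 226 bp. None of these 5 neighbours changed in height by the limma test, with log2 changes from −0.21 to 0.22 after the centring described below.

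The heights of the shared neighbours were not used by the rule that chose the members. They come from the same 6 libraries and the same places on the contigs, so they are not independent of that choice. The 647 members had 627 different nearest shared regions, of which 20 were nearest to 2 members. Heights of all 13209 shared regions were taken on a log2 scale, centred on each library's median and compared between the groups with limma, with Benjamini-Hochberg adjustment over all of them. Of the 627 neighbours, 65 (10.4%) were higher under deoxyshikonin and 30 (4.78%) were lower at an adjusted p below 0.05. Over all shared regions these shares were 6.68% and 7.71%. The median log2 change was 0.037 among neighbours and −0.024 among all shared regions. A change either way was called at 15.2% of neighbours and 14.4% of all shared regions. Most regions of both groups thus had no called change, and the median member stood beside a shared region whose change was small.

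By library, the median centred log2 height of the 627 neighbours was −0.090, −0.051 and −0.10 in control replicates 1 to 3. It was 0.040, 0 and 0.037 in deoxyshikonin replicates 1 to 3. The groups did not overlap, and the difference of 0.11 had an exact permutation p of 0.1 (two-sided, 20 arrangements), the smallest that 3 libraries against 3 can give. Set against the other shared regions, the difference was 0.12, with the same exact permutation p of 0.1. Because pileups are whole numbers, these medians move in steps. With the mean in place of the median the difference was 0.070.

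The direction rests on how height is scaled. Before centring, the median shared region stood 0.27 higher in log2 height under deoxyshikonin. Scaled by depth alone, 113 neighbours (18.0%) were higher, against 12.7% of all shared regions, and limma called 0 lower (4 lower at an unadjusted p below 0.05). With fold enrichment as the height, 14 neighbours (2.23%) were higher and 28 (4.47%) lower, against 2.05% and 3.01% of all shared regions, and the difference of medians turned to −0.024. The local background that fold enrichment divides by differed at these sites. It was 2.14, 1.94 and 2.11 times the library value at neighbours in control replicates 1 to 3 and 2.52, 2.79 and 2.55 in deoxyshikonin replicates 1 to 3. The other shared regions had 2.12, 1.90 and 2.12, and 2.25, 2.42 and 2.28. At the 261 neighbours with a member within 5 kb it was 2.24, 2.02 and 2.23, and 2.81, 3.11 and 2.80. The window around those neighbours can hold the tags of the member, so these values are a description and were not tested.

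The calls can also be given by the distance of the member. Of the 261 with a drug-only region within 5 kb, 17 (6.51%) were higher and 14 (5.36%) lower. Of the 366 others, 48 (13.1%) were higher and 16 (4.37%) lower. All shared regions, as given above, had 6.68% higher and 7.71% lower. The difference between these counts was not tested. The difference of median centred log2 height between the groups was 0.027 for the 261 and 0.14 for the 366. Each had an exact permutation p of 0.1. Across the 647 members, the neighbour's log2 change had a Spearman correlation of 0.040 with distance and −0.058 with the member's height, values near 0. The neighbour's own height under deoxyshikonin correlated with the member's height at 0.314, across regions that share libraries and local depth.

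**Figure D5:**
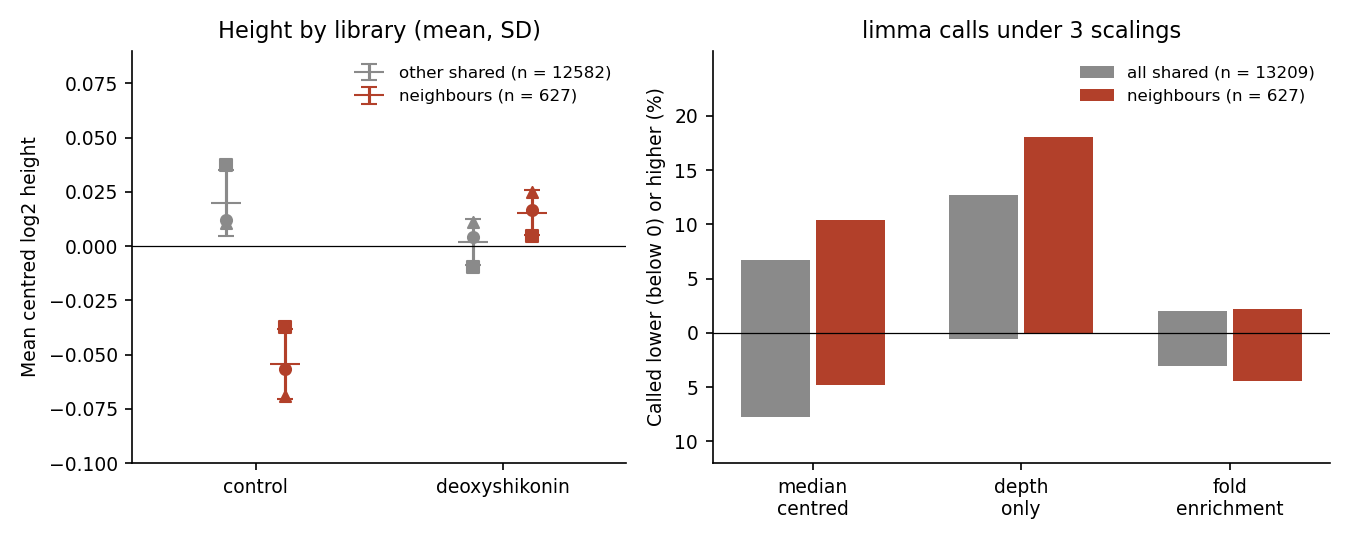
Left, mean centred log2 height of the 627 neighbours and the 12582 other shared regions by group, with a symbol per library and the mean and SD over 3 libraries. Right, percentage called higher (above 0) or lower (below 0) by limma under 3 scalings: neighbours exceed all shared regions in the higher calls with median centring and depth scaling, and by 2.23% against 2.05% with fold enrichment.

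Among members with a changed neighbour, the largest rise was beside the member on LUXX01073178.1 at 2045754 to 2046169. The neighbour, at 2037607 to 2038473, had control heights of 6.35, 7.98 and 9.73, against 28.2, 28.1 and 27.0 with the drug. The lowest deoxyshikonin library was well above the highest control, and the difference by limma was 1.54 (log2, SE 0.18, adjusted p = 1.19e-10). Heights printed for single regions are scaled by depth alone, whereas these limma differences are of centred heights. By depth alone this rise was 1.81 in log2 height. The member itself was modest, at 9.22, 12.3 and 9.18. The next was on LUXX01014221.1, where the neighbour at 57090 to 57835 went from 8.47, 6.10 and 11.7 to 22.8, 21.2 and 27.6, a rise of 1.22 in log2 height (SE 0.18, adjusted p = 2.83e-07). Its member, at 64584 to 65002, had heights of 9.22, 15.1 and 9.69. On LUXX01039679.1 the neighbour at 340401 to 341366 went from 8.99, 9.39 and 8.95 to 20.9, 27.4 and 26.5, a rise of 1.17 in log2 height (SE 0.17, adjusted p = 2.04e-07), beside a member at 334398 to 334923 with 9.22, 8.90 and 6.12. In these 3 the rise was at a site listed in every control, and the drug-only region beside it was the smaller of the pair.

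Members also stood beside shared regions that fell. On LUXX01099058.1 the neighbour at 731112 to 731882 had control heights of 24.9, 21.6 and 23.0, against 11.2, 19.2 and 18.4 with the drug. By limma on centred heights it fell by 0.82 on the log2 scale (SE 0.15, adjusted p = 2.12e-05). Scaled by depth alone, as the printed heights are, its log2 difference was −0.55. Its member, at 732943 to 733294 and 1622 bp away by midpoint, had 8.74, 13.0 and 13.3. On LUXX01012913.1 the neighbour at 2077361 to 2077920 went from 15.3, 13.6 and 16.0 to 10.2, 11.6 and 9.69, a fall with a limma difference of −0.79 (SE 0.19, adjusted p = 0.00153). The member 3745 bp away, at 2073553 to 2074239, reached 15.5, 13.7 and 12.8, above its neighbour in all 3 deoxyshikonin libraries. The neighbour at 989624 to 990315 on LUXX01036151.1 was among the tall ones, at control heights of 50.8, 46.9 and 49.8, against 33.5, 34.9 and 35.2 with the drug. Its difference by limma was −0.78 (SE 0.12, adjusted p = 6.16e-07), and its member at 985516 to 986009 had 16.5, 22.6 and 15.8. At all 3 sites the groups did not overlap. These 6 neighbours kept their direction in all 9 alternative fits. They were picked as the largest changes in these same libraries. Neither separate groups nor a kept direction is therefore independent of the choice. With fold enrichment as height the LUXX01014221.1, LUXX01039679.1 and LUXX01036151.1 calls were lost (adjusted p = 0.0867, 0.170 and 0.116), and with depth scaling all 3 calls of a fall were lost (adjusted p = 0.0673, 0.109 and 0.0502).

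Members were usually lower than the shared region they stood beside. A neighbour had to be listed in all 6 libraries and a member in no control, so this order is not independent of the choice. The median ratio of member to neighbour height was 0.676, 0.696 and 0.658 in deoxyshikonin replicates 1 to 3. The member was the taller of the pair at 74, 100 and 70 of the 647 members in these libraries, and in all 3 libraries at 20 (3.09%).

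The 20 shared regions with 2 members each had them on both sides in 10 cases and on 1 side in the other 10. The one with the members closest to it was on LUXX01034237.1 at 3410999 to 3411369. Both members lay on its lower side, at 3408386 to 3408928 and at 3409438 to 3409991, 2527 and 1470 bp away by midpoint. Their heights were 16.5, 20.5 and 22.4, and 18.4, 22.6 and 16.8, in deoxyshikonin replicates 1 to 3. The neighbour had control heights of 18.0, 14.1 and 19.8, against 24.3, 24.0 and 19.9 with the drug. After centring, limma gave it a log2 difference of 0.13 (SE 0.15, adjusted p = 0.636). Heights of the 3 elements under deoxyshikonin thus ran from 16.5 to 24.3. By the definition of a member, only the neighbour was listed in the controls. Under the assumption above, the highest control limit was 0.640 and 0.658 of the deoxyshikonin height of the 2 members.

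At the distance limit, the last 2 inside lay 9950 and 9998 bp from a shared region, on LUXX01090259.1 at 544899 to 545127 and LUXX01079974.1 at 2209630 to 2210121. Their heights were 9.22, 10.3 and 10.7, and 10.7, 19.9 and 11.7. The first 2 outside, at 10003 and 10008 bp, were on LUXX01069835.1 at 662140 to 662630 and LUXX01014477.1 at 439901 to 440433, with 7.28, 11.6 and 8.67, and 6.80, 11.6 and 6.12.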

How the data were processed

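The deposited data were 6 narrowPeak lists, 1 per library. Per the submitters' processing notes peaks were called with MACS2 2.1.0 on reads aligned with Bowtie2 2.4.2. The notes also name bcl2fastq 2.17, deepTools and Trim Galore 0.6.6. Settings, such as any shift of reads for the transposase, and the genome build: not given in the sources used here. The authors' values per peak are a fold enrichment (a ratio), a −log10 p, a −log10 q and a whole-number score. The summit position, an offset from the peak start, was deposited too. Positions are counted from 1.

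Summit pileup and local background were solved from each peak's fold enrichment and −log10 p, taking the MACS2 form (pileup + 1) / (background + 1) and a Poisson tail. For 100% of peaks this gave back the deposited −log10 p to a relative 0.0001. Local backgrounds above the library value were whole multiples of 0.02, which corresponds to 200 bp tags over 10 kb. The lowest background is the library value. Where a library had several peaks in a region, the one with the highest −log10 q was used for members and the highest pileup for shared regions.

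Members, lists and tests were chosen with earlier results of these data known. The regions named are the 5 members with the highest mean percentile, the 5 closest, those beside the 3 most increased and 3 most decreased neighbours, the shared region nearest to most members (ties by mean distance), and 2 on each side of the limit. limma was fitted with a trend on all shared regions. Solver and limma were tested on simulated data. Models ran in limma 3.58.1 under R 4.3.3, and other steps in Python 3.11.15 with scipy 1.17.1, numpy 2.4.6 and pandas 2.3.3, and matplotlib 3.10.9 drew the figures.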

Additional observations from a re-analysis of the deposited data

How the results depend on the processing

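The number of near drug-only regions (647) was 264 and 1235 with midpoints within 5 and 20 kb, 82 when each list was shortened to its best 17169 peaks, 381 with 50% coverage as presence and 1656 with a replicate block (gained in at least 2 of 3 numbers and lost in none, a looser criterion). It was 751 to 967 when each library was left out, with fewer libraries to satisfy. Their share of drug-only regions (10.7%) fell to 6.43% in the shortened lists and 6.41% with 50% coverage, the cause of which was not tested, and was 11.0% to 13.1% without 1 library. The stricter q limit, summit windows, edge distance and a clear distance of 500 bp left the count within 1.5 times. Neighbours called higher (65) and lower (30) numbered 113 and 0 with depth scaling, 14 higher with fold enrichment as height, 17 and 14 within 5 kb and 116 and 60 within 20 kb, and the last 2 pairs rest on other numbers of neighbours. Without 1 library there were 45 to 60 higher and 19 to 27 lower, lowest without deoxyshikonin replicates 2 and 1. With the replicate block, 64 were higher and 29 lower. The median height change (0.11) turned to −0.024 with fold enrichment. It was 0.027 with midpoints within 5 kb and 0.088 within 20 kb. Held-out differences moved by less than the spread between libraries.

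The replicate numbers showed no pairing: same-numbered libraries had correlations of −0.014 to 0.0034 in their deviations from group means. The mean in place of the median was chosen after seeing the data. Depth limits what a missing peak shows.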

Other observations

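A few near drug-only regions had a region of the opposite kind close by, listed in all 3 controls and in no deoxyshikonin library. Such a control-only region lay within 10 kb of 7 members (1.08%) and of 9 far drug-only regions (0.166%). These pairs were looked for after the data were seen, and the difference was not tested. The closest pair was on LUXX01005638.1, where the member at 60847 to 61955 and the control-only region at 59921 to 60287 were 1.30 kb apart by midpoint. The authors' fold enrichment was 3.58, 2.87 and 3.53 at the member in deoxyshikonin replicates 1 to 3, and 4.89, 4.20 and 3.83 at the control-only region in control replicates 1 to 3. On LUXX01018167.1 the member at 153270 to 153674 (3.49, 3.55 and 3.50) and the control-only region at 151851 to 152384 (4.98, 4.02 and 4.62) were 1.35 kb apart. On LUXX01052731.1 the member at 1183368 to 1183974 (4.71, 5.46 and 5.08) stood 1.91 kb from the control-only region at 1185258 to 1185910 (4.83, 4.02 and 4.32). The fourth involved a member named above for its closeness to a shared region, on LUXX01008409.1 at 958956 to 959279, with a control-only region at 961916 to 962417. The other three were 6.29 to 8.71 kb apart.

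The 20 members that were taller than their shared neighbour in all 3 deoxyshikonin libraries were led by the one on LUXX01053029.1 at 3870544 to 3871342. Its heights were 15.5, 17.1 and 12.8, against 6.80, 8.22 and 6.63 at the neighbour 9559 bp away. That neighbour had 8.47, 8.92 and 7.78 in the controls. The 7 contigs with 6 members each differed in how many shared regions they held, from 11 on LUXX01046947.1 to 98 on LUXX01052731.1.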
